A study of Mus musculus with 9 samples.

Results

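Epithelial-mesenchymal transition (EMT) genes were examined in sphere cultures of mouse mammary cells. The set holds 10 genes: the transcription factors Snai1, Snai2, Twist1, Twist2, Tcf4, Zeb1, Zeb2 and Prrx1, and the mesenchymal markers Cdh2 and Vim. They were found by symbol, with every probe set that the array's annotation assigned to that symbol alone. This gave 22 probe sets, out of 20380 probe sets of a single symbol that stand for 12393 genes. RNA came from tumorspheres (TMS), mammospheres induced to differentiate (diffMMS) and mammospheres (MMS), with 3 arrays in each group and 9 in all. TMS were grown in stem cell medium from mammary tumors of MMTV-Neu mice, which carry the Neu oncogene under a viral promoter that is active in mammary epithelium. MMS were grown in that medium too, from glands of FVB/N mice, young virgin females by the study's methods. For diffMMS, cells of such mammospheres were plated on collagen and kept for 7 days in medium with serum. Both kinds of sphere were passaged every 7 days and harvested at passages 3 to 5. All cultures started from bulk primary cells with no sort, and the labels give 3 independent cell populations a group.

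EMT is the change by which epithelial cells lose their junctions and take on the shape and motility of mesenchymal cells. Snail and ZEB factors are zinc finger repressors that bind E-boxes, short DNA motifs such as CACCTG, in promoters of epithelial genes including that of E-cadherin. Twist factors are basic helix-loop-helix (bHLH) proteins that bind DNA in pairs with E proteins, among them the product of Tcf4 (also named E2-2, and not the β-catenin partner Tcf7l2). In the mammary gland, EMT factors have been studied both for basal and stem cell properties and for tumor cells. Fibroblasts and other mesenchymal cells express many of the same genes without any transition.

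Promoters of 3 genes are shown, 2 with the motif and 1 without it, as CACCTG is the kind of DNA that the Snail and ZEB factors are known to bind. Of the 10 genes, 6 had a promoter in the RefSeq table for GRCm38.p6, taken as the 250 bases before the gene's start. CACCTG on either strand, which reads CAGGTG on the other strand, was present in Snai1 alone of these 6 genes. In the table it was present for 19.4% of 27025 genes, in any promoter of the gene, and in 17.2% of all 32851 promoters. Snai1 is shown because it encodes a factor of this motif and holds the motif itself. Vim, without it, is shown as the gene with a promoter in the table whose level changed most firmly, and Epcam as an epithelial gene that differed widely between the cultures. Capitals mark the motif, which starts at -126 in Snai1 and at -187 and -19 in Epcam, counted from the gene's start.
Snai1, chr2:167537945-167538194, plus strand: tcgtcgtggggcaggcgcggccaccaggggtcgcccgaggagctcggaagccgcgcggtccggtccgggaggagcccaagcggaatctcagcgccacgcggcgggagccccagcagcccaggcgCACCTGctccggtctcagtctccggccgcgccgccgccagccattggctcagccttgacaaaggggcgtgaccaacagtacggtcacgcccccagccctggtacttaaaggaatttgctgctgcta
Vim, chr2:13574061-13574310, plus strand: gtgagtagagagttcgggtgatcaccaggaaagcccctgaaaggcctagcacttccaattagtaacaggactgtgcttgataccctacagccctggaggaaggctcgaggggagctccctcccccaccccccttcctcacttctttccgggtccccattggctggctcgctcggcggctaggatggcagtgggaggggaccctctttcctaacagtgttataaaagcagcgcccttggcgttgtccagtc
Epcam, chr17:87635729-87635978, plus strand: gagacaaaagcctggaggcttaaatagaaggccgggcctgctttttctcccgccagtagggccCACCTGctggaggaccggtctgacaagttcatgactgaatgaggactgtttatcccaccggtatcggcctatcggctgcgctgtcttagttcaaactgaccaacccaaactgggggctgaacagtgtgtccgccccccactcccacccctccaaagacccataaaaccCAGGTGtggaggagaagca
A match is only a run of letters, and binding was not measured in these cultures.

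The deposited values were intensities on a linear scale with medians of 83.96 to 88.55 per array. They are given here as log2 intensity, after addition of 8.67 and quantile normalization, so that fold changes of dim probe sets are understated. Differences between cultures are read within a probe set. Percentiles and summed intensities set probe sets beside each other and are only a rough guide to level. The 3 arrays a group limit the precision. For a gene with several probe sets, the brightest on average is called its main probe set. A change is a Benjamini-Hochberg adjusted p under 0.05 over 22626 probe sets in a limma fit of all 9 arrays. The codes of the TMS arrays form a run apart from the other 6, and no batch is labelled, so that array run and tumor origin cannot be told apart. The codes of the MMS arrays (858A to 860A) and of the diffMMS arrays (861A to 863A) follow each other. They are blocked by culture, so that code order and culture cannot be told apart there either.

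The mammary epithelial identity given to the cultures was checked against marker genes. The counts of markers stand beside shares over all 12393 genes, of which 6.22% were higher and 7.14% lower in TMS than in MMS. For TMS against diffMMS these shares were 12.3% and 12.6%, and for diffMMS against MMS 17.9% and 16.2%. Cdh1, the E-cadherin gene, had log2 intensities of 5.36, 5.92 and 6.60 in TMS, 4.06, 4.08 and 4.23 in diffMMS and 4.05, 4.22 and 4.28 in MMS. All diffMMS and MMS arrays and 1 TMS array thus lay under 5.58, the 25th percentile of group means over all probe sets. Luminal genes summed to intensities of 9396 to 14748 in TMS, 1009 to 1201 in diffMMS and 971 to 1151 in MMS, with 11 of 15 higher in TMS than in MMS and 12 of 15 higher than in diffMMS. Fibroblast genes were bright as a sum in every culture, at 34137 to 36946 in TMS, 53496 to 56521 in diffMMS and 41957 to 43075 in MMS. By its mean, 1 of the 16 lay under the 25th percentile of all probe sets. Of 16 fibroblast genes, 1 was higher and 4 were lower in TMS than in MMS, while 7 were higher and 4 lower in diffMMS than in MMS. Of 16 basal and myoepithelial genes, 7 were higher and 2 lower in diffMMS than in MMS. The smooth muscle genes Tagln (log2 fold change 3.73) and Acta2 (2.59) led the higher ones. The 2 lower ones were Itga6 (-1.15) and Vcan (-0.61), and the median of the 16 genes was 0.20. Macrophage and leukocyte genes were higher in TMS than in MMS for 8 of 18, with sums of 2130 to 3268 in TMS against 1171 to 1276 in MMS. Endothelial genes were lower in TMS than in MMS for 5 of 14, adipocyte genes for 2 of 7 and neural and Schwann cell genes for 2 of 6, with 2 of these last 6 higher. In diffMMS against MMS, 3 of the 7 adipocyte genes were higher, with sums of 4499 to 4950 in diffMMS against 1026 to 1290 in MMS. These were Lpl (log2 fold change 2.51), Retn (0.40) and Cidec (0.18), while the median of the 7 genes was 0.08. Neural and Schwann cell genes were higher there for 4 of 6, with sums of 1763 to 1933 in diffMMS against 1100 to 1194 in MMS. The largest rise was that of Pmp22 (1.47), ahead of Sox10 (0.35) and Mbp (0.32), and the median of the 6 genes was 0.27. Macrophage and leukocyte genes were higher in diffMMS than in MMS for 5 of 18 and lower for 1, and endothelial genes higher for 2 of 14 and lower for 1. The lowest intensity of any probe set was 5.77, in array 860A, so that a value above 0 does not show that a cell type was present. By their means, 6 of 18 macrophage and leukocyte, 4 of 14 endothelial and 3 of 7 adipocyte genes lay under the 25th percentile of all probe sets. So did 3 of the 15 luminal genes and 1 of the 16 basal and myoepithelial genes. The part of these cell types in the results that follow was not tested, and in bulk RNA fewer cells of a type and less RNA per cell cannot be told apart.

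Calls among the EMT genes were fewest for TMS against MMS and most for diffMMS against MMS, an order that all genes shared. By main probe set, 1 of the 10 genes differed between TMS and MMS, Snai2, which was lower in TMS. This compares with 13.4% of all 12393 genes, 6.22% higher and 7.14% lower in TMS. With the values as deposited or with centred arrays, 4 genes were lower in TMS than in MMS, since Twist2, Zeb1 and Prrx1 then passed as well. Tcf4 and Vim were higher in TMS than in diffMMS, and Twist1 and Cdh2 were lower, so that 4 of 10 differed, beside 24.9% of all genes, 12.3% higher and 12.6% lower. With any single array left out, 0 or 1 of the 2 lower genes kept its call, and without TMS array 1101A 4 genes were higher in TMS. In diffMMS against MMS, 5 of 10 differed, beside 34% of all genes, 17.9% higher and 16.2% lower. Of these, Cdh2 was higher in diffMMS, while Snai2, Zeb1, Tcf4 and Vim were lower. The groups did not overlap for 2, 3 and 6 of the 10 genes in the same order of comparisons, beside 32.7%, 39.2% and 53.6% of all genes. The median log2 fold change of the 10 genes was -0.20 for TMS over MMS, 0.02 for TMS over diffMMS and -0.25 for diffMMS over MMS, where all genes had medians of 0.00, -0.03 and 0.05. The comparisons share arrays, since each group enters a pair of them.

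**Figure D1:**
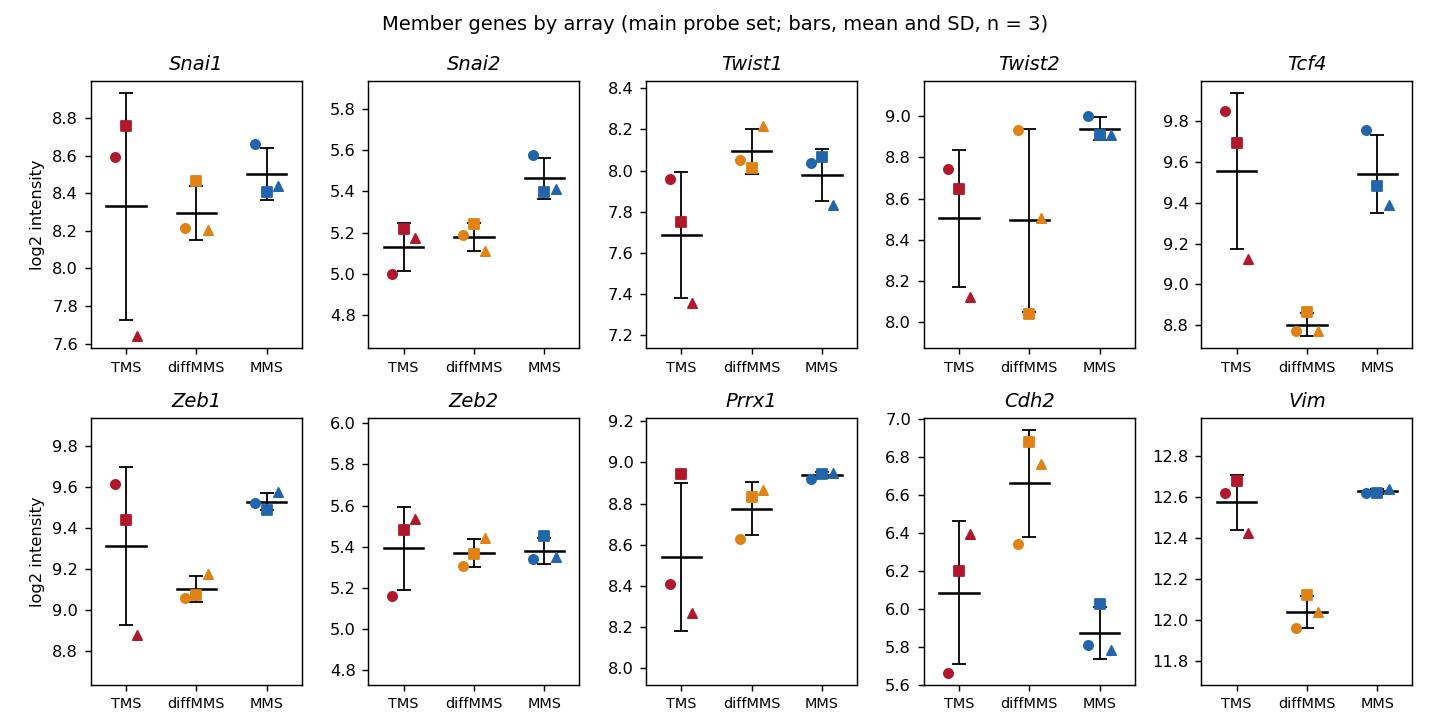
Log2 intensity of the main probe set of each of the 10 genes in the 3 arrays of TMS, diffMMS and MMS. Symbols are arrays, the long bar is the group mean and the whiskers are the SD (n = 3). Each panel has its own axis, and the spans are not all the same. Tcf4 and Vim lie lowest in all 3 diffMMS arrays and Cdh2 lies lowest in MMS on average, with a mean of 5.87.

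Snai1 encodes the founding Snail repressor of EMT. It had log2 intensities of 8.59, 8.76 and 7.64 in TMS, 8.22, 8.46 and 8.21 in diffMMS and 8.66, 8.41 and 8.44 in MMS. The groups overlapped in every comparison, and the lowest value by far was that of TMS array 1101A. The log2 fold change was -0.17 for TMS over MMS (standard error 0.223, adjusted p = 0.683), with a 95% interval of -0.66 to 0.31. It was 0.04 for TMS over diffMMS (adjusted p = 0.927) and -0.21 for diffMMS over MMS (adjusted p = 0.505). Without array 1101A, Snai1 was higher in TMS than in diffMMS (0.38, adjusted p = 0.0251), and the sign against MMS turned (0.17, adjusted p = 0.314).

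Snai2 encodes Slug, the Snail factor of basal mammary cells. It had log2 intensities of 5.00, 5.22 and 5.17 in TMS, 5.19, 5.24 and 5.11 in diffMMS and 5.58, 5.40 and 5.41 in MMS. The 3 MMS arrays lay above the other 6, although the probe set is dim, at percentile 18.9 of all probe sets by its mean. Snai2 was lower in TMS than in MMS by a log2 fold change of -0.34, or 0.793-fold (standard error 0.0731, adjusted p = 0.00962). In diffMMS it was lower than in MMS by -0.28 (adjusted p = 0.0109). TMS over diffMMS gave -0.05 (95% interval -0.21 to 0.11, adjusted p = 0.654). The size of both differences depended on the pseudocount, with -0.43 for TMS and -0.36 for diffMMS when none was added and -0.18 and -0.15 when 43.3 was added. The call against MMS held for TMS in all 17 alternatives of scaling, variance model and arrays in which the probe set was kept. The call for diffMMS was lost with the values as deposited (adjusted p = 0.05004).

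Twist1 encodes a bHLH factor that induces EMT in mammary cells. It had log2 intensities of 7.96, 7.75 and 7.35 in TMS, 8.05, 8.01 and 8.22 in diffMMS and 8.04, 8.06 and 7.83 in MMS. All 3 TMS arrays lay under the diffMMS arrays, with 1101A the lowest, while TMS and MMS overlapped. Twist1 was lower in TMS than in diffMMS by -0.41, or 0.754-fold (standard error 0.133, adjusted p = 0.0443). The call was narrow and was lost in 12 of 18 alternatives, among them the removal of any array other than TMS array 1099A (adjusted p up to 0.146, with -0.24 and adjusted p = 0.123 without 1101A). Against MMS, TMS gave -0.29 (adjusted p = 0.180), which passed without array 1099A (-0.43, adjusted p = 0.0458). For diffMMS over MMS the value was 0.12 (adjusted p = 0.539).

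Twist2 encodes the close relative of Twist1. It had log2 intensities of 8.74, 8.65 and 8.12 in TMS, 8.94, 8.04 and 8.50 in diffMMS and 9.0, 8.91 and 8.91 in MMS. The MMS arrays had an SD of 0.0552, and all 3 TMS arrays lay under them, while diffMMS spread widely with an SD of 0.448. Neither difference from MMS passed the test, with -0.44 for TMS (95% interval -0.87 to -0.00, adjusted p = 0.181) and -0.45 for diffMMS (adjusted p = 0.105). With the values as deposited they passed, at -0.56 (adjusted p = 0.0441) and -0.64 (adjusted p = 0.0118), and with centred arrays at -0.60 and -0.69 (adjusted p = 0.0291 and 0.00753). The diffMMS difference also passed with array weights (-0.58, adjusted p = 0.00772) and without array 861A (-0.68, adjusted p = 0.0183).

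Tcf4 encodes an E protein, the class with which Twist factors pair, and it fell in diffMMS. Its main probe set, 1416724_x_at, had log2 intensities of 9.85, 9.69 and 9.12 in TMS, 8.77, 8.87 and 8.77 in diffMMS and 9.75, 9.48 and 9.39 in MMS. Every diffMMS array lay under every other array, whereas TMS and MMS overlapped. Tcf4 was higher in TMS than in diffMMS by 0.75, or 1.68-fold (standard error 0.157, adjusted p = 0.00431). It was lower in diffMMS than in MMS by -0.74, or 0.599-fold (adjusted p = 0.00370). These calls held in all 18 alternatives of scaling, pseudocount, filter, variance model and arrays. For TMS over MMS the value was 0.01, with a 95% interval of -0.33 to 0.36 (adjusted p = 0.970).

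The 6 probe sets of Tcf4 did not tell the same story for TMS against MMS. The 5 brighter ones all passed as higher in TMS than in diffMMS (0.61 to 0.85) and as lower in diffMMS than in MMS (-1.42 to -0.66). Of these, 1434148_at had log2 intensities of 8.59, 8.49 and 8.12 in TMS, 7.55, 7.91 and 7.83 in diffMMS and 9.20, 9.09 and 9.17 in MMS. Its neighbour 1434149_at had 7.18, 7.23 and 6.81 in TMS, 6.08, 6.35 and 6.24 in diffMMS and 7.56, 7.73 and 7.64 in MMS. With both, the 3 cultures were fully separated, with MMS highest and diffMMS lowest. TMS were lower than MMS by -0.75 with the first (standard error 0.124, adjusted p = 0.00203) and by -0.57 with the second (standard error 0.113, adjusted p = 0.00578), in all 18 alternatives each. The other 3 bright probe sets gave -0.17 to 0.01 for this comparison and did not pass, except that 1424089_a_at passed with centred arrays (-0.32, adjusted p = 0.0384). Across the 9 arrays, these 2 probe sets correlated at r = 0.98 with each other and at r = 0.80 to 0.94 with the other bright ones. The sixth, 1416725_at, lay at percentile 23.1 and passed in no comparison (-0.12 to 0.14). Which transcripts of Tcf4 each probe set detects was not analysed here.

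**Figure D2:**
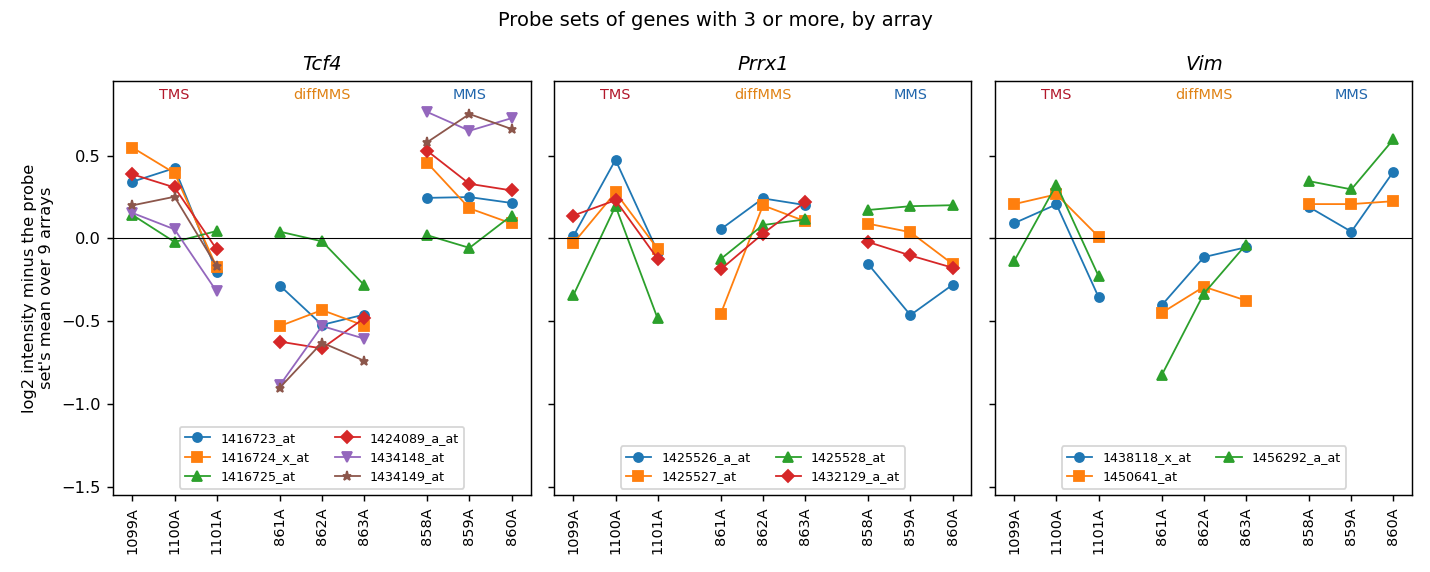
Log2 intensity of every probe set of Tcf4, Prrx1 and Vim in each of the 9 arrays (TMS, then diffMMS, then MMS), drawn as the difference from that probe set's mean over the 9 arrays, 1 line per probe set and group. The Tcf4 probe sets 1434148_at and 1434149_at stand above the others in MMS and not in TMS, and in MMS 1425528_at of Prrx1 lies above 0 where 1425526_a_at lies below it.

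Zeb1 encodes a zinc finger homeodomain repressor of E-cadherin. Its main probe set had log2 intensities of 9.62, 9.44 and 8.88 in TMS, 9.06, 9.08 and 9.18 in diffMMS and 9.52, 9.49 and 9.57 in MMS. The diffMMS arrays all lay under the MMS arrays, and the TMS arrays spanned the range of both. Zeb1 was lower in diffMMS than in MMS by -0.42, or 0.745-fold (standard error 0.146, adjusted p = 0.0425). The direction held in all 18 alternatives, but the call was lost in 7 of them, with no intensity trend and without any single array of diffMMS or MMS (adjusted p up to 0.118). It held in the other 11, with adjusted p = 5.3e-04 with only these groups in the fit and 0.00540 with array weights. The SD was 0.385 in TMS, whose arrays share the variance estimate, 0.0621 in diffMMS and 0.0426 in MMS. The log2 fold change was -0.66 with the values as deposited and -0.71 with centred arrays. TMS over MMS gave -0.22 (95% interval -0.54 to 0.10, adjusted p = 0.378), which passed with the values as deposited (-0.39, adjusted p = 0.0489) and with centred arrays (-0.43, adjusted p = 0.0294). TMS over diffMMS gave 0.21 (adjusted p = 0.337), and without array 1101A Zeb1 was higher in TMS (0.42, adjusted p = 0.00239). A second, dim probe set lay at percentile 18.2 and gave 0.00 to 0.02 in the 3 comparisons.

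Zeb2 encodes the relative of Zeb1. It had log2 intensities of 5.16, 5.48 and 5.53 in TMS, 5.30, 5.36 and 5.44 in diffMMS and 5.34, 5.45 and 5.35 in MMS. The groups overlapped throughout and the probe set is dim, at percentile 20.9. The log2 fold changes were 0.01 for TMS over MMS (95% interval -0.18 to 0.21), 0.02 for TMS over diffMMS (-0.17 to 0.22) and -0.01 for diffMMS over MMS (-0.20 to 0.19), with adjusted p from 0.878 to 0.948. Each sign turned under some of the alternatives, where values of the other sign reached at most 0.0715 in size.

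Prrx1 encodes a paired-type homeobox factor of mesenchyme, and its 4 probe sets disagreed. The main one, 1425528_at, had log2 intensities of 8.41, 8.95 and 8.27 in TMS, 8.63, 8.83 and 8.86 in diffMMS and 8.92, 8.94 and 8.95 in MMS. TMS array 1100A lay among the MMS arrays and the other TMS arrays lay below them. TMS over MMS gave -0.40 (standard error 0.143, adjusted p = 0.0868), which passed without array 1100A (-0.61, adjusted p = 0.00257), with the values as deposited (-0.52, adjusted p = 0.0276) and with centred arrays (-0.57, adjusted p = 0.0203). TMS over diffMMS gave -0.23 (adjusted p = 0.264, and -0.44 with adjusted p = 0.00773 without 1100A). For diffMMS over MMS the value was -0.17 (adjusted p = 0.402), with groups that did not overlap, and it passed with centred arrays (-0.41, adjusted p = 0.0455).

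The probe set 1425526_a_at of Prrx1 differed from MMS in the other direction. It had log2 intensities of 7.88, 8.34 and 7.78 in TMS, 7.92, 8.10 and 8.06 in diffMMS and 7.71, 7.40 and 7.58 in MMS, which lay under all others. It was higher than in MMS by 0.44 in TMS (standard error 0.133, adjusted p = 0.0486) and by 0.47 in diffMMS (adjusted p = 0.0190). The TMS call was lost in 13 of 18 alternatives (adjusted p up to 0.194), among them the removal of any array other than 1101A. The diffMMS call was lost in 5, with centred arrays and without 859A, 860A, 862A or 863A, where adjusted p reached 0.0868. The remaining 2 probe sets gave -0.04 to 0.18 and did not pass, except that 1432129_a_at passed for TMS over MMS with array weights (adjusted p = 0.0386). Between the main probe set and 1425526_a_at, r was -0.02 over the 9 arrays.

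Cdh2 encodes N-cadherin, the adhesion molecule that mesenchymal cells carry in place of E-cadherin, and it rose in diffMMS. Its main probe set had log2 intensities of 5.66, 6.20 and 6.39 in TMS, 6.34, 6.88 and 6.76 in diffMMS and 5.81, 6.03 and 5.78 in MMS. All diffMMS arrays lay above all MMS arrays, and TMS overlapped with both. Cdh2 was higher in diffMMS than in MMS by 0.79, or 1.73-fold (standard error 0.176, adjusted p = 0.00491), in all 18 alternatives. It was lower in TMS than in diffMMS by -0.58, or 0.670-fold (adjusted p = 0.0328). This second call was lost in 5 alternatives, with only these groups in the fit and without 1099A, 1100A, 862A or 863A, where adjusted p reached 0.118 (without 1099A the value was -0.37, adjusted p = 0.0881). TMS over MMS gave 0.21 (95% interval -0.17 to 0.60, adjusted p = 0.489). A second probe set, at percentile 20.8, gave 0.51 for diffMMS over MMS (adjusted p = 0.0650), -0.42 for TMS over diffMMS (adjusted p = 0.154) and 0.10 for TMS over MMS.

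Vim encodes vimentin, the intermediate filament protein of mesenchymal cells, and it was bright in every culture. The main probe set, at percentile 99.9, had log2 intensities of 12.62, 12.68 and 12.42 in TMS, 11.96, 12.12 and 12.04 in diffMMS and 12.62, 12.62 and 12.64 in MMS. The 3 diffMMS arrays lay below the other 6, and TMS and MMS overlapped. Vim was higher in TMS than in diffMMS by 0.53, or 1.45-fold (standard error 0.0770, adjusted p = 3.2e-04). It was lower in diffMMS than in MMS by -0.59, or 0.667-fold (adjusted p = 1.3e-04). Both calls held in all 18 alternatives, with values of 0.48 to 0.61 and -0.63 to -0.55. Against MMS, TMS gave -0.05 with a narrow 95% interval of -0.22 to 0.12 (adjusted p = 0.726), and the sign turned without array 1101A (0.03) and with array weights (0.01).

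The other probe sets of Vim ran the same way with larger spreads. For diffMMS over MMS, 1456292_a_at passed at -0.81 (standard error 0.186, adjusted p = 0.00571), and 1438118_x_at gave -0.40 (adjusted p = 0.0533). For TMS over diffMMS they gave 0.39 (adjusted p = 0.158) and 0.17 (adjusted p = 0.432), and for TMS over MMS -0.43 (adjusted p = 0.160) and -0.23 (adjusted p = 0.349). While vimentin was lower in diffMMS, the summed intensity of the 16 fibroblast genes was higher there, as given above. By gene, 7 of them were higher and 4 lower in diffMMS than in MMS, with a median log2 fold change of 0.13. Among the higher were Thy1 (1.42), Fbln2 (1.39) and Mfap5 (1.39), and among the lower Cd34 (-2.56), Lum (-1.84) and Fap (-1.04). The part of Vim and these genes in each other was not tested.

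Counted by probe set, 4 of the 22 differed between TMS and MMS, 1 higher and 3 lower in TMS, beside 14.3% of all 22626 probe sets, 6.5% higher and 7.78% lower. Between TMS and diffMMS 8 differed, 6 higher and 2 lower in TMS, beside 23.7%, 12.2% higher and 11.4% lower. Between diffMMS and MMS 11 differed, 2 higher and 9 lower in diffMMS, beside 33.1%, 16.1% higher and 17% lower. The groups did not overlap for 5, 7 and 13 of the 22, beside 33.3%, 37.4% and 51.6% of all probe sets. Tcf4 gave 5 of the 9 lower ones, so that probe sets of a single gene weigh heavily in these counts. With the probe set of the largest moderated F statistic for each gene, in place of the brightest, 3, 4 and 6 of 10 genes differed in the same order of comparisons, since Tcf4 then passed as lower and Prrx1 as higher in TMS than in MMS, and Prrx1 as higher in diffMMS than in MMS.

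**Figure D3:**
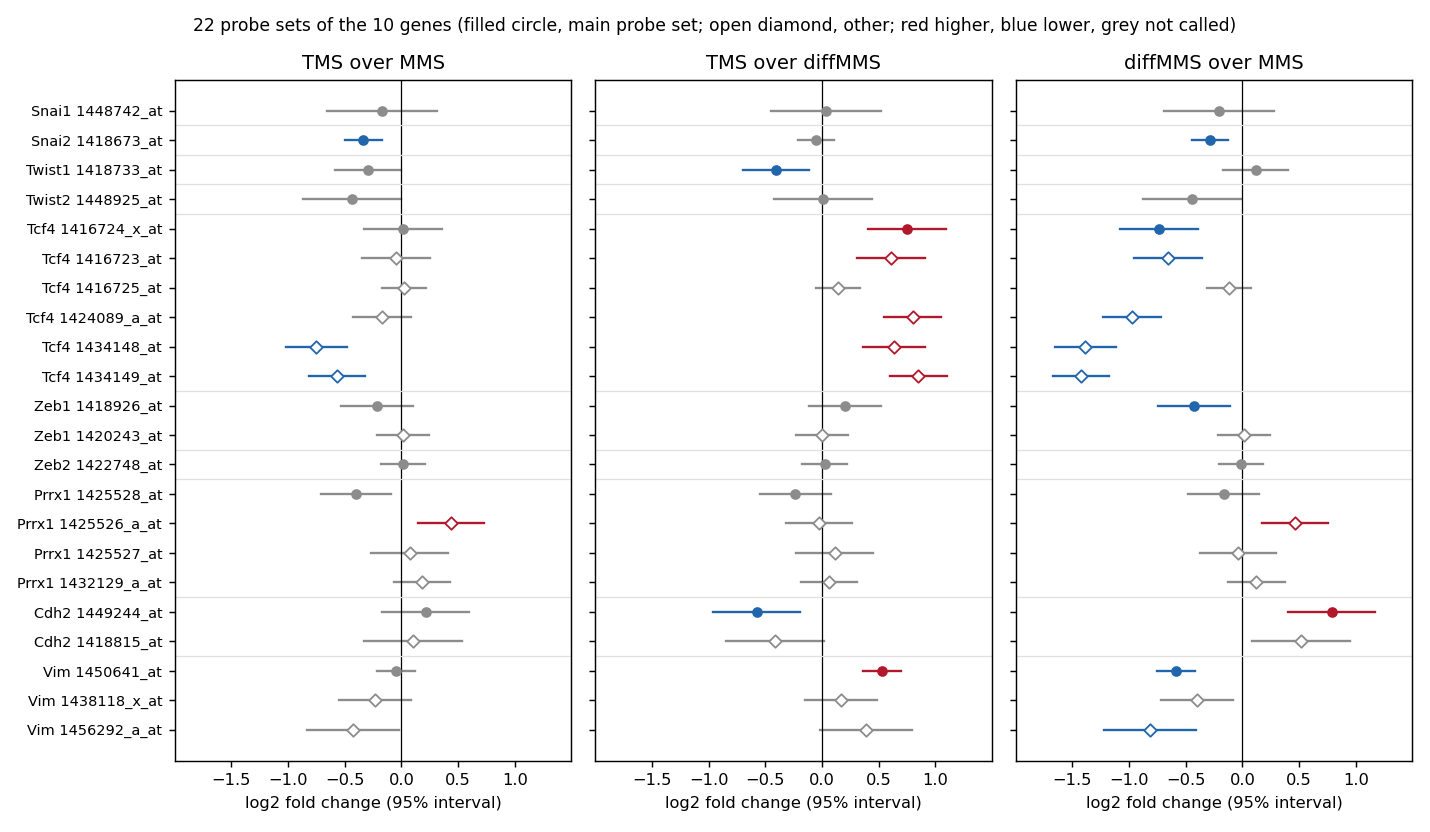
Log2 fold changes with 95% intervals for the 22 probe sets, in 3 panels for TMS over MMS, TMS over diffMMS and diffMMS over MMS; filled circles are main probe sets, open diamonds are others, and red, blue and grey mark higher, lower and not called. The 5 brighter Tcf4 probe sets lie right of 0 in the middle panel and left of 0 in the right panel, and in the left panel 2 of them, at -0.75 and -0.57, part from the rest.

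The EMT genes varied more between the TMS arrays than within the other groups. The median SD of the 22 probe sets was 0.296 in TMS, 0.133 in diffMMS and 0.113 in MMS, where all probe sets had medians of 0.0937, 0.0879 and 0.0656. The medians over all probe sets are not matched for intensity, and several of the 22 share a gene. Array 1101A was the lowest of the TMS arrays for 7 of the 10 genes, namely Snai1, Twist1, Twist2, Tcf4, Zeb1, Prrx1 and Vim. It was the lowest for 43.9% of all 12393 genes. In diffMMS, array 861A was likewise the lowest of its group for 6 of the 10 genes, Tcf4, Zeb1, Zeb2, Prrx1, Cdh2 and Vim, beside 33.7% of all genes. Among the TMS arrays, Snai2, Zeb2 and Cdh2 were instead lowest in array 1099A. Array 1101A also had the highest median of 36 epithelial junction genes, at a log2 intensity of 7.37, where arrays 1099A and 1100A had 6.85 and 6.91. The summed intensity of those 36 genes was 13383 in array 1101A, 8905 in 1099A and 8747 in 1100A. The 31 other mesenchymal genes, given below, summed to 66468 in array 1101A, 63683 in 1099A and 63185 in 1100A. Their medians were 10.29, 10.14 and 10.37 in that order. Array 1101A also had the lowest of the array weights (0.408), with diffMMS array 861A close to it (0.435). The other TMS arrays had weights of 0.572 (1099A) and 2.33 (1100A). The deviations of array 1101A from the group mean over all probe sets had the largest SD (0.143). The part of any of these in the lower EMT genes of array 1101A was not tested.

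**Figure D4:**
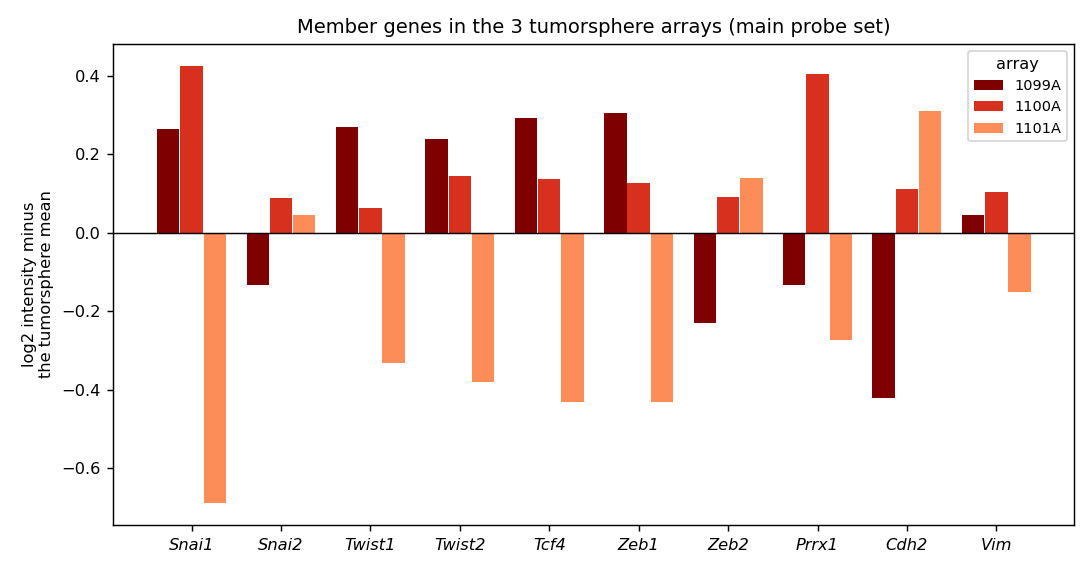
Log2 intensity of the main probe set of the 10 genes in the TMS arrays 1099A, 1100A and 1101A, each as the difference from the TMS mean, with bars starting at 0. In array 1101A, 7 genes lie below 0 and are the lowest of the 3 arrays there.

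Other genes linked to EMT are given by list, and no list was tested against the 10. The counts of every list, here and below, stand beside the shares of all genes called. These were 13.4% for TMS against MMS, 24.9% for TMS against diffMMS and 34% for diffMMS against MMS. Of 36 epithelial junction and EMT-repressed genes, 24 were higher in TMS than in MMS and the other 12 did not pass, while 24 were higher and 2 lower in TMS than in diffMMS. Against MMS the largest rises were those of the keratins Krt18 (4.27) and Krt8 (3.25) and of the adhesion molecule Epcam (3.56), whose promoter is shown above. In diffMMS against MMS 11 were higher, while the desmosome gene Dsp (-1.44) and the tight junction gene Cldn1 (-1.35) were lower. The luminal list shares 8 genes with this one. The median log2 fold change of the 36 genes was 0.53 for TMS over MMS, 0.42 for TMS over diffMMS and 0.13 for diffMMS over MMS, beside the medians of all genes given above.

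Among 31 measured mesenchymal genes other than the 10, of which 10 are also among the 16 fibroblast genes, 4 were higher and 5 lower in TMS than in MMS. In TMS against diffMMS the counts were 10 and 13, and in diffMMS against MMS 13 and 11. Lox, a collagen cross-linking enzyme, was higher in diffMMS than in MMS by 4.13, as were Thy1 (1.42) and the collagen Col5a1 (1.12). Gng11, a G protein subunit, was lower by -2.25, the matrix proteoglycan Lum by -1.84 and the matrix protein Tnc by -1.23. Cdh2 was higher in diffMMS, as Lox was, and Vim and Tcf4 were lower there, as Gng11 was.

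Of 18 other factors known to induce EMT, 4 were higher and 1 lower in TMS than in MMS, 6 and 2 in TMS against diffMMS, and 2 and 6 in diffMMS against MMS. Hmga2, a chromatin protein, was higher in TMS than in diffMMS by 3.05 and lower in diffMMS than in MMS by -2.68, in the same directions as Tcf4. Foxc1, a forkhead factor, was higher than in MMS by 0.82 in TMS and by 0.93 in diffMMS. Among 6 bHLH partners and Id inhibitors of Twist, Tcf12, another E protein, was higher in TMS than in diffMMS by 0.67 and lower in diffMMS than in MMS by -0.35. Id2, an inhibitor of E proteins, ran likewise with 1.83 and -1.10, and Id4 ran the opposite way with -0.58 and 0.91. Of 12 corepressors of Snail and ZEB factors, 3 were lower in TMS than in MMS and the other 9 did not pass; these were the deacetylases Hdac2 (-0.93) and Hdac1 (-0.30) and the demethylase Kdm1a (-0.48). In diffMMS against MMS 2 corepressors were higher and 4 lower, with Ajuba at 0.63 and the methyltransferase Ezh2 at -0.93.

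TGF-beta signaling, a main inducer of EMT factors, was measured by 13 genes. Of these, 8 were higher and 1 lower in TMS than in MMS, 8 and 3 in TMS against diffMMS, and 4 and 4 in diffMMS against MMS. The ligand gene Tgfb3 was higher in TMS than in MMS by 1.17, while the receptor gene Tgfbr1 was lower by -0.67. In diffMMS against MMS the coreceptor gene Tgfbr3 was higher by 1.57, and Tgfbr1 (-1.47) and the ligand gene Tgfb1 (-1.19) were lower. Of 11 other intermediate filament genes, relatives of Vim, 2 were higher and 3 lower in diffMMS than in MMS. Nestin, encoded by Nes, was lower there by -0.54, in the direction of Vim, as were the neurofilament gene Nefl (-1.32) and Lmnb2 (-0.40). The 2 higher ones, against the direction of Vim, were Prph (0.43) and Gfap (0.37). In TMS, Nefl was lower than in MMS by -1.02.

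**Figure D5:**
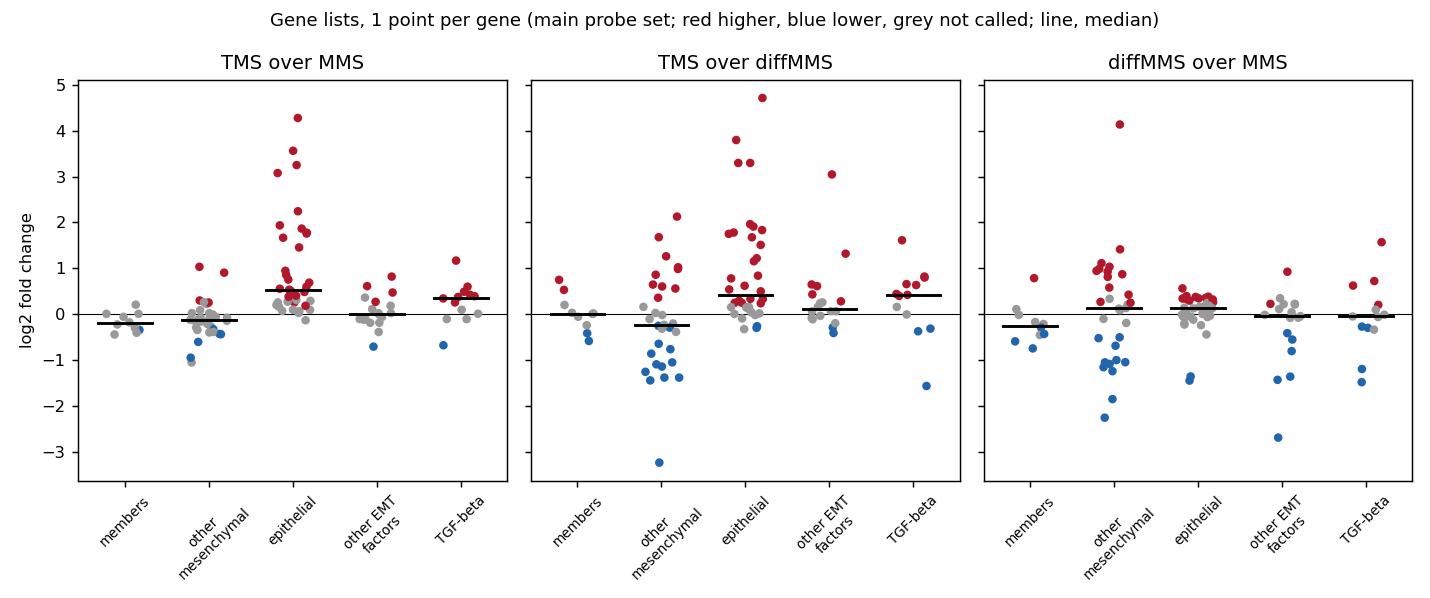
Log2 fold changes of TMS over MMS, TMS over diffMMS and diffMMS over MMS for the 10 genes and 4 lists of related genes, with 1 point per gene by main probe set, red, blue and grey for higher, lower and not called, and a line at each list's median. The 36 epithelial genes have a median of 0.53 in the left panel, while the 10 EMT genes lie between -0.44 and 0.21 there.

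For the 6 genes whose main probe set passed in some comparison, the probe sets of other genes with the most similar values over the 9 arrays were listed by Pearson correlation, as a description. The arrays share 3 groups, so that any gene with the same group means scores highly. Vim was followed most closely by Spred1 (r = 0.99), Scara3 (0.99) and S100a16 (0.99), and 115 probe sets had r over 0.95 with it. Tcf4 was followed by Mmp16 (0.98), Trim8 (0.97) and Mmp9 (0.97), with 14 over 0.95. The nearest to Cdh2 were Runx1 (0.97), Smpdl3a (0.97) and Plk2 (0.96). Twist1 was nearest to Gpr143 (0.98), Gata5 (0.97) and Hoxd8 (0.96), and Zeb1 to Aida (0.97), Defb1 (0.96) and 4930533N22Rik (0.95). For Snai2 no probe set exceeded 0.95, and Hapln1 (0.95), Ebf2 (0.94) and Khdrbs1 (0.94) came first.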

How the data were processed

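Biotin-labelled RNA was hybridized to MOE430A Gene Chips by the authors, who deposited 1 intensity value per probe set and array on a linear scale. The summary method is not given in the sources used here, and the methods name GeneSpring. Of 22690 probe sets, 64 are Affymetrix controls and 20380 carry 1 symbol in the platform's annotation, 691 several and 1555 none. By Entrez identifier, 20351 were found in RefSeq's gene table (GRCm38.p6). To each intensity 8.67 was added, 10% of the median of all values, and log2 was taken. Quantile normalization followed, because quartiles differed by up to 0.164, above the limit of 0.1. A limma 3.58.1 model of group means (R 4.3.3, eBayes with an intensity trend) used all 9 arrays and left 6 residual degrees of freedom, with two-sided p values adjusted by Benjamini-Hochberg over 22626 probe sets and a threshold of 0.05. Standard errors are moderated and assume the same variance in each group. Replicates follow accession order and pair nothing. The suffix R in the label of array 858A is not explained there.

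The 10 genes and the 14 lists were chosen with earlier results of these data known, so that no p is adjusted over a list and no list is tested. All 10 genes are named with all their probe sets, and of each list the largest called changes, up to 3 in each direction and comparison, from which examples are given; Cdh1 is named as a marker. Of 211 listed symbols 200 were measured. Only 19 of the 36 epithelial genes had a promoter in the table, so that no share over that list is given. Alternatives were other scalings, pseudocounts of 0 and 43.3, a filter on dim probe sets, other variance models, weights for arrays, fits of a single pair of groups, removal of each array, the probe set of largest F and a threshold of 0.01. The model was also run on simulated data in which each probe set had the same variance in every group. That run therefore does not bear on groups of unequal spread. Figures were drawn with matplotlib 3.10.9 in Python 3.11.15.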

Additional observations from a re-analysis of the deposited data

How the results depend on the processing

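Over the 10 genes and 3 comparisons, 513 values under alternatives kept their direction and side of the threshold, 29 lost a call, 16 gained one and 36 turned in sign. The calls of Vim and Tcf4 in diffMMS against both other cultures, of Cdh2 in diffMMS against MMS and of Snai2 in TMS against MMS held under every alternative run, except that Snai2 and Zeb2 were left out by the filter on dim probe sets. No paired analysis was possible because the labels give no replicate numbers that groups share. Depth is not known for arrays; the filter kept 17531 probe sets and 8 of the 10 genes. The cause of the changes below was not tested.

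Genes called lower in TMS than in MMS numbered 4 with the values as deposited or centred, 0 without dim probe sets, 2 by the probe set of largest F and 1 to 2 with an array left out. By largest F, 1 was called higher there and 2 in diffMMS against MMS. Genes called lower in TMS than in diffMMS numbered 1 with the values as deposited, centred or with no intensity trend, 0 with only the groups compared or a threshold of 0.01, and 0 to 1 with an array left out, while those called higher numbered 2 to 4. At 0.01, 2 genes were lower in diffMMS than in MMS. Over all probe sets, TMS against MMS gave 2730 higher and 3130 lower with array weights, 738 and 811 at 0.01, and 865 to 1805 and 998 to 2283 with an array left out, lowest without MMS array 859A and next without 860A (892 and 1015). At 0.01, TMS against diffMMS gave 1749 higher and 1417 lower, and diffMMS against MMS 1883 higher; with an array left out the last was 2293 to 4109. Centring gave 1225 higher and 2366 lower in TMS against MMS (34.1% of calls higher, 45.5% in the main analysis) and 2903 and 4673 in diffMMS against MMS (38.3%, and 48.6% in the main analysis).

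For TMS over MMS, signs turned for Tcf4 (-0.14 as deposited, -0.19 centred, -0.57 by largest F, -0.13 to 0.23 with an array left out), Prrx1 (0.44 by largest F), Snai1 (0.0877 with array weights, -0.39 to 0.17 with an array left out), Vim (0.0112 with array weights, -0.0992 to 0.0253) and Zeb2 (-0.0572 to 0.129). For TMS over diffMMS they turned for Zeb2 (-0.0086 as deposited, -0.0065 centred, -0.0477 to 0.138 with an array left out), Snai1 (-0.18 to 0.38), Snai2 (-0.0942 to 0.0155) and Twist2 (-0.22 to 0.23). For diffMMS over MMS they turned for Zeb2 (0.0715 as deposited, 0.0242 centred, 0.0071 with array weights, -0.0455 to 0.0262 with an array left out), Twist1 (-0.0394 centred) and Prrx1 (0.47 by largest F). Apart from Tcf4 and Prrx1 by largest F, none of the turned values passed the test.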
